A study of Homo sapiens with 12 samples.

Results

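Adding lapatinib to the FAK inhibitor PF04554878 was described here from 4 of the 12 arrays of a series whose cells are labelled SKBR-3. That breast tumour line is known to carry many copies of ERBB2 and no oestrogen receptor. The combination was 1 µM PF04554878 with 5 µM lapatinib (2 arrays), and the arrays it was set against were labelled 1 µM PF04554878 alone (2 arrays). The other 4 groups, each of 2 arrays, were 1 µM Y15 with 5 µM lapatinib, 1 µM Y15, 5 µM lapatinib, and untreated cells, for which no vehicle is named. Treatment lasted 24 h. All genes with a probe above background on at least 2 of the 12 arrays were compared, 11478 in all, of which 9017 were above background on all 4 arrays compared. Nothing in the labels tells whether the 2 arrays of a group had cultures of their own, so the p-values cover only the spread among these arrays, which may be technical. In bulk RNA, fewer cells of a kind and less RNA per cell cannot be told apart.

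Lapatinib is a kinase inhibitor of EGFR and of ERBB2 (HER2), receptors whose signals run through the RAS, RAF, MEK and ERK kinases and through PI3K and AKT. PF04554878 (defactinib) and Y15 inhibit focal adhesion kinase (FAK, encoded by PTK2), which sits where integrins hold the cell to its matrix and passes signals on through SRC and paxillin. In ERBB2-driven breast cells, blocking the receptor is known to lower ERK-dependent transcription and to slow the cell cycle, and FOXO factors, which AKT holds in the cytoplasm, are known to become active when AKT is inhibited.

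ESR1, the oestrogen receptor, stood at 10.47 and 10.35 log2 units in the combination and at 10.11 and 9.99 with PF04554878 alone, where the cutoff for background was 6.805. The progesterone receptor gene PGR had 8.24 and 8.13 in the combination and 8.12 and 8.04 with PF04554878 alone. Both were above background on all 12 arrays, which goes against the labelled line, so every group is named here as its arrays were labelled. The luminal keratins KRT8 and KRT19 averaged 13.17 and 13.46 in the combination and 13.21 and 13.50 with PF04554878 alone. GRB7, which is amplified together with ERBB2 in SKBR-3, averaged 7.37 and 7.21 in the same 2 groups, not far above the cutoff of 6.805. ERBB2 averaged 9.15 and 8.75 there and ran from 8.29 to 9.36 over the 12 arrays. KRT8 ran from 12.20 to 13.34 over the same arrays, and the highest value of any probe was 13.9. The copy number of ERBB2 was not tested. The arrays of the series fell into 3 sets. Across genes, the combination arrays correlated with those of PF04554878 alone at r from 0.984 to 0.986, against 0.994 between the replicates of either group. Untreated paired likewise with Y15, and lapatinib with Y15 plus lapatinib, while arrays of different sets correlated at 0.872 to 0.938. The comparison described here lies within 1 set. Lapatinib against untreated crosses 2 sets.

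Few large changes separated the combination from PF04554878 alone. KYNU, DKK1 and AKR1C2 were 3.73-fold to 4.47-fold lower in the combination, and TCN1, CEACAM6, GPNMB and S100P dropped below background there. UGT2B15, SERPINA3, CXCR4, IER3 and MUC1 were between 1.98-fold and 2.69-fold higher. By limma with Benjamini-Hochberg adjustment at a threshold of 0.05, 1026 of 11478 genes were called (8.94%), 474 of them higher (4.13%) and 552 lower (4.81%). Of these, 48 changed at least 2-fold, 11 higher and 37 lower, and the median absolute log2 change of the called genes was 0.45. Without any single 1 of the 4 arrays the count dropped to between 420 (without the second combination array) and 586 (without the second PF04554878 array), with 508 without the first PF04554878 array and 550 without the first combination array. In all 4 of those fits the same 312 genes were called, 132 higher and 180 lower.

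KYNU was among the largest falls. It encodes kynureninase, an enzyme of tryptophan breakdown, and stood at 8.42 and 8.34 in the combination and at 10.61 and 10.47 with PF04554878 alone. The groups lay far apart, with a log2 change of -2.16 ± 0.10 (standard error of the fit, as below; adjusted p = 5.95e-09). DKK1, a secreted inhibitor of WNT signalling, stood at 8.61 and 8.47 in the combination and at 10.61 and 10.33 with PF04554878 alone (-1.93 ± 0.12, adjusted p = 9.64e-08). NECAB1, a calcium-binding protein, stood at 7.44 and 7.30 in the combination against 9.72 and 9.39 (-2.18 ± 0.17). In each of these genes both combination arrays were more than 1.5 log2 units under both arrays of PF04554878 alone.

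TCN1, which encodes the vitamin B12 carrier haptocorrin, was below background on both combination arrays, at 6.50 and 6.42, and stood at 8.59 and 8.74 with PF04554878 alone. Its fold is therefore a lower bound, at least 3.64-fold lower in the combination (adjusted p = 9.64e-08). CEACAM6, a cell adhesion glycoprotein, was at 6.79 and 6.61 in the combination and at 8.84 and 8.69 with PF04554878 alone, at least 3.89-fold lower. GPNMB, a transmembrane glycoprotein, was at 6.52 and 6.41 against 8.49 on both arrays of PF04554878 alone, at least 3.22-fold lower. S100P, a calcium-binding protein, was at 6.78 and 6.71 in the combination against 8.27 and 8.36, at least 2.85-fold lower. All 4 genes thus had a measured level with PF04554878 alone and none well above background in the combination. CEACAM6 belongs to a family of similar genes, so its probe may also read relatives.

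The remaining leading falls lay between 2.67-fold and 3.73-fold. AKR1C2, an aldo-keto reductase that acts on steroids, stood at 7.08 and 7.07 in the combination and at 9.07 and 8.87 with PF04554878 alone (-1.90 ± 0.20, adjusted p = 2.02e-05). ACKR3, an atypical receptor of the chemokine CXCL12, stood at 7.32 and 7.54 against 9.14 and 9.01 (-1.65 ± 0.11, adjusted p = 1.65e-07). TFPI, which inhibits tissue factor, stood at 7.34 and 7.33 in the combination and at 8.92 and 8.86 with PF04554878 alone (-1.55 ± 0.10). The groups did not overlap in any of them, which the rule for naming leading genes required. Over all 11478 genes, 5893 had groups without overlap. The others were ANXA3, an annexin (-1.53 ± 0.12), PAPSS2, which makes the sulfate donor of the cell (-1.52 ± 0.13), FHL2, a LIM-domain cofactor (-1.49 ± 0.16), and ADM, the peptide hormone adrenomedullin (-1.42 ± 0.14).

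Rises were smaller than falls. UGT2B15, which attaches glucuronic acid to androgens, led them at 8.74 and 8.65 in the combination against 7.34 and 7.19 with PF04554878 alone (1.43 ± 0.09, adjusted p = 1.65e-07). UGT2B17, a close relative with the same activity, averaged 8.71 in the combination and 7.48 with PF04554878 alone, and UGT2B11 averaged 7.88 and 6.89 in the same groups. All 3 rose, but the genes are related and probes may be read by more than 1 of them, so which of them changed is uncertain. SERPINA3, a secreted protease inhibitor, stood at 11.48 and 11.49 in the combination and at 10.26 and 10.19 with PF04554878 alone (1.26 ± 0.12, adjusted p = 1.23e-05). CXCR4, the signalling receptor of CXCL12, stood at 8.79 and 8.83 in the combination against 7.73 and 7.59 (1.15 ± 0.10, adjusted p = 6.08e-06). The 2 receptors of CXCL12 thus moved in opposite directions, CXCR4 up and ACKR3 down.

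IER3, an immediate early gene, stood at 11.07 and 10.93 in the combination and at 9.85 and 9.94 with PF04554878 alone (1.10 ± 0.12, adjusted p = 2.18e-05). MUC1, a luminal surface mucin, stood at 10.63 and 10.74 against 9.69 and 9.71 (0.98 ± 0.09, adjusted p = 6.61e-06). The other leading rises were CCDC117 (1.34 ± 0.16), the CDC42 effector CDC42EP5 (1.28 ± 0.11), the sterol reductase TM7SF2 (1.24 ± 0.13), the prostaglandin E2 receptor PTGER4 (1.02 ± 0.10), the leucine-breakdown enzyme MCCC2 (1.00 ± 0.11) and the transcriptional repressor BHLHE40 (0.95 ± 0.09). TXNIP, an inhibitor of thioredoxin and a FOXO target, rose by 1.14 ± 0.26. It stood at 10.71 and 10.62 in the combination and at 9.52 and 9.53 with PF04554878 alone. Its error also holds the spread of the other groups, among them the untreated arrays at 9.28 and 10.61. The call of TXNIP was lost whichever of the 4 arrays was left out. The other 27 of the 28 leading genes kept theirs in all 4 of those fits.

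**Figure D1:**
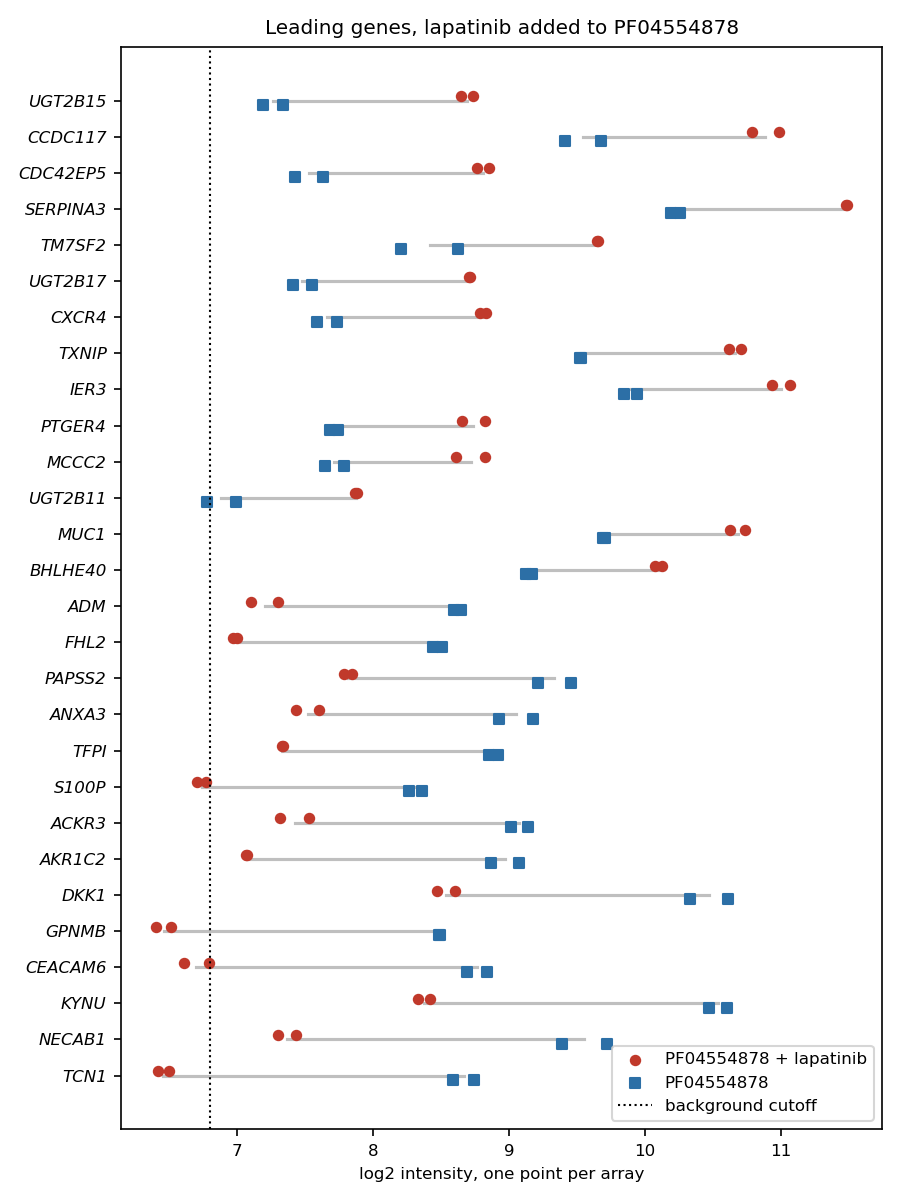
Log2 intensity of the 28 leading genes (x axis) on each of the 4 arrays, circles for PF04554878 plus lapatinib and squares for PF04554878 alone; grey lines join the group means, and the dotted line is the background cutoff of 6.805. No gene's groups overlap, as the rule for naming the genes required. The circles of TCN1, GPNMB, CEACAM6 and S100P lie left of the cutoff.

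Dim genes understate their change on this scale, since background remains in the values. With the background level subtracted, the log2 change of AKR1C2 came to -3.32 and that of CDC42EP5 to 1.96, both genes above background on all 4 arrays.

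ERBB2, a target of lapatinib, stood at 9.16 and 9.14 in the combination and at 8.67 and 8.83 with PF04554878 alone, a rise of 0.40 ± 0.09 (adjusted p = 0.0132). The call was lost without the first PF04554878 array and without either combination array (largest adjusted p = 0.137). EGFR, close to background on all 4 arrays, averaged 6.93 in the combination and 6.86 with PF04554878 alone (0.07 ± 0.09, adjusted p = 0.707). ERBB3, the partner of ERBB2 that binds neuregulin, differed by 0.29 ± 0.14 (adjusted p = 0.245), and its 2 other kept probes had the opposite sign. PTK2 itself stood at 10.68 and 10.61 in the combination and at 10.57 and 10.43 with PF04554878 alone (0.15 ± 0.10, adjusted p = 0.421). The 1 other kept probe of PTK2 had the opposite sign and was not called. PTK2B, the FAK relative PYK2, was below background on both combination arrays and at 6.89 and 6.92 with PF04554878 alone (adjusted p = 0.322). ESR1 differed by 0.36 ± 0.11 (adjusted p = 0.0524). Of 9 ERBB receptors and ligands that passed the filter among 15 listed, 1 rose (ERBB2) and 1 fell (HBEGF). Each is 11.1% of the list, against 4.13% higher and 4.81% lower of all genes. The ligand HBEGF was below background in the combination, at least 1.14-fold lower (adjusted p = 0.0379). It was not called in any fit that left out 1 array.

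Genes known to be switched on by ERK moved both ways. Of 20 that passed the filter among 25 listed, 5 rose (25%, against 4.13% of all genes) and 3 fell (15%, against 4.81%), with a median of 0.03. The rises were immediate early genes and others: besides IER3, FOS stood at 7.90 on both combination arrays and at 7.06 and 7.09 with PF04554878 alone (0.83 ± 0.10, adjusted p = 5e-05). EGR1, another immediate early transcription factor, averaged 8.12 in the combination and 7.39 with PF04554878 alone (0.72 ± 0.10). DUSP5, an ERK phosphatase, rose by 0.56 ± 0.11, and CCND1, the cyclin of the G1 phase, by 0.33 ± 0.09. EGR1 was called in all 4 fits without an array, DUSP5 was lost without the second combination array, and CCND1 was lost whichever array was left out. The falls were PHLDA1 at 7.81 and 7.73 in the combination against 8.66 and 8.60 (-0.86 ± 0.10), the ephrin receptor EPHA4 (at least 1.51-fold lower, adjusted p = 0.000308, below background in the combination) and HBEGF. DUSP6, a phosphatase often read as a gauge of ERK activity, differed by 0.03 ± 0.09 (adjusted p = 0.909), and SPRY2, a feedback inhibitor, by 0.02 ± 0.09 (adjusted p = 0.918). The list as a whole thus had no common direction.

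FOXO targets were mixed too, with 3 of 22 higher (13.6%, against 4.13% of all genes) and 4 lower (18.2%, against 4.81%). TXNIP, the steroid-induced TSC22D3 (0.48 ± 0.12) and the mitophagy gene BNIP3 (0.34 ± 0.10) rose. FBXO32, a ubiquitin ligase of muscle wasting, stood at 6.90 and 6.87 in the combination and at 7.63 and 7.58 with PF04554878 alone (-0.72 ± 0.11, adjusted p = 0.000421), and KLF6, CITED2 and SOD2 also fell. Of these calls, that of FBXO32 held in all 4 fits without an array. TXNIP, BNIP3 and SOD2 held in none, CITED2 held only without the second PF04554878 array, TSC22D3 held only without the first combination array, and KLF6 was lost without the first PF04554878 array and without the second combination array.

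Focal adhesion genes fell where they were called. Of 24 that passed among 28 listed, 0 rose and 5 fell (20.8%, against 4.81% of all genes), with a median of -0.06. At an unadjusted p under 0.05, 2 were higher and 6 lower. ZYX, the focal adhesion protein zyxin, stood at 8.30 and 8.12 in the combination and at 8.77 and 8.91 with PF04554878 alone (-0.63 ± 0.14, adjusted p = 0.00898). The integrin subunits ITGAV (-0.57 ± 0.13), ITGA3 (-0.51 ± 0.12) and ITGB4 (-0.43 ± 0.13) and the tensin TNS3 (-0.43 ± 0.10) were the others. Values for SRC (0.32 ± 0.11, adjusted p = 0.0772) and ITGA5 (0.30 ± 0.10, adjusted p = 0.0855) lay above 0 and were not called. When single arrays were left out, between 0 and 3 of the 24 genes were called lower. ZYX was lost without the second PF04554878 array and without the second combination array, and ITGA3, ITGB4, ITGAV and TNS3 were each called in 1 of the 4 fits. That of ITGA3 and ITGB4 was the one without the first PF04554878 array, that of ITGAV the one without the second, and that of TNS3 the one without the first combination array.

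Targets of YAP and of serum response factor, which read tension in the cytoskeleton, held larger falls. Of 21 that passed among 26 listed, 1 rose (4.76%, against 4.13% of all genes) and 4 fell (19%, against 4.81%), with a median of -0.11. FHL2 led at 6.97 and 7.00 in the combination against 8.51 and 8.44 with PF04554878 alone. ANKRD1, a YAP target, dropped below background at 6.69 and 6.60 in the combination and stood at 7.21 and 7.39 with PF04554878 alone, and was at least 1.41-fold lower (adjusted p = 0.00075). AJUBA, a LIM protein of cell junctions, fell by 0.48 ± 0.10, and CCN1 by 0.37 ± 0.10. Only TAGLN, an actin-binding protein, rose (0.29 ± 0.08). CCN2, the most used YAP target, differed by -0.21 ± 0.10 (adjusted p = 0.243). Calls of FHL2, ANKRD1 and AJUBA held in all 4 fits without an array, and those of CCN1 and TAGLN in none.

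All 32 mitosis genes listed passed the filter and were above background on all 4 arrays. Of these, 0 rose and 7 fell (21.9%, against 4.81% of all genes), with a median of -0.19 against -0.01 over all genes, and 3 of 32 had values above 0. At an unadjusted p under 0.05, 1 was higher and 13 were lower. BIRC5 (survivin), which acts at the centromere and inhibits cell death, stood at 8.54 and 8.46 in the combination and at 9.45 and 9.51 with PF04554878 alone (-0.98 ± 0.10, adjusted p = 2.46e-05). CCNB2, a mitotic cyclin, stood at 9.58 and 9.54 against 10.11 and 10.01 (-0.50 ± 0.10, adjusted p = 0.00412). The other falls were the kinetochore gene NDC80 (-0.43 ± 0.10), the activator of the anaphase-promoting complex CDC20 (-0.44 ± 0.12), the mitotic kinase CDK1 (-0.36 ± 0.09), CDCA8 (-0.34 ± 0.09) and securin, PTTG1 (-0.32 ± 0.09). Without single arrays, between 1 and 4 mitosis genes were called lower and between 0 and 1 higher. BIRC5 was called in every fit. CCNB2 was lost without the first PF04554878 array (adjusted p = 0.0521). CDK1 was called only without the second combination array, NDC80 only without the second PF04554878 array, CDC20 and PTTG1 only without the first combination array, and CDCA8 in none of these fits.

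Genes of DNA replication and of the step from G1 to S gave the same picture. Here 0 of 31 were higher and 5 lower (16.1%, against 4.81% of all genes), with a median of -0.18. The counts at an unadjusted p under 0.05 were 0 and 11. POLE2, a subunit of a replicative polymerase, stood at 7.99 and 8.14 in the combination and at 8.65 and 8.51 with PF04554878 alone (-0.51 ± 0.11, adjusted p = 0.0064). PRIM1, a primase subunit, fell by 0.51 ± 0.11, the licensing factor CDT1 by 0.44 ± 0.10, cyclin E1 (CCNE1) by 0.43 ± 0.09 and RFC4, a subunit of the clamp loader, by 0.37 ± 0.09. Each of the first 4 was lost in 2 of the 4 fits without an array. POLE2 was lost without either first array, CDT1 without either second array, and PRIM1 and CCNE1 without the first PF04554878 array or the second combination array. RFC4 was lost in all 4. Between 1 and 3 genes of the list were called in each fit.

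**Figure D2:**
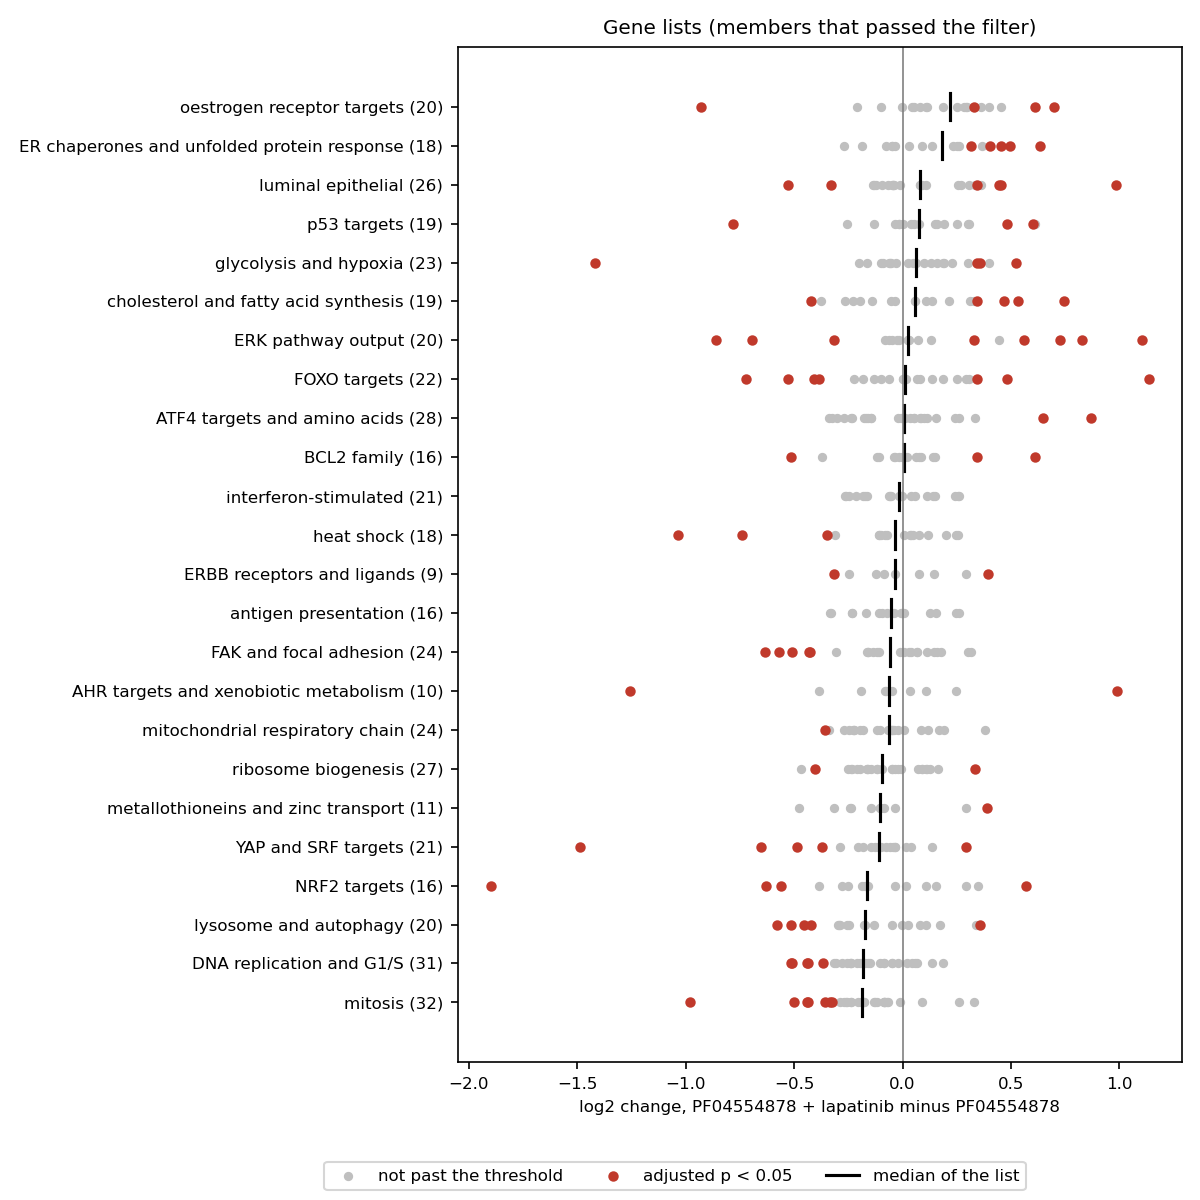
Log2 change of each list member that passed the filter, PF04554878 plus lapatinib minus PF04554878 alone (x axis), by list with its number of genes (marker lists of other cell types left out); red points had an adjusted p under 0.05 and black bars are medians. The bars of the mitosis and DNA replication lists lie furthest left, at -0.19 and -0.18, and that of the oestrogen receptor targets furthest right, at 0.22.

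Promoters of 2 of the called genes are shown because they carry the letters by which their groups are usually recognised, as RefSeq gives the 250 bases before the start site in GRCh38.p14. CCNB2 lies on the plus strand (chr15:59104896-59105145) and ANKRD1 on the minus strand (chr10:90921088-90921337), each written 5′ to 3′ along its gene. Capitals mark matches.
CCNB2: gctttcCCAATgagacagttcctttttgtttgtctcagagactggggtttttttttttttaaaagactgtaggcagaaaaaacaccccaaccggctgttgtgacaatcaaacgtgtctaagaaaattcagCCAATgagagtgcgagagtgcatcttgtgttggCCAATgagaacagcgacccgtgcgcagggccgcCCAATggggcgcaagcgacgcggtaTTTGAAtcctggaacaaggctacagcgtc
ANKRD1: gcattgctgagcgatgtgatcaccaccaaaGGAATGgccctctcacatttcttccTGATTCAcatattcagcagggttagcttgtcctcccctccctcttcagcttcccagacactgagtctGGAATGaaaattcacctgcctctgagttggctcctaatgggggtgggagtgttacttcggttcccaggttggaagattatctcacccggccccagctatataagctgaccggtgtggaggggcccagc

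In CCNB2 the capitals are 4 CCAAT boxes (CCAAT, or ATTGG on the other strand) and 1 cell cycle homology region (TTTGAA, or TTCAAA), which begins 29 bases before the start. In ANKRD1 they are 2 MCAT boxes, the letters bound by TEAD factors (CATTCC, here as GGAATG), beginning 220 and 128 bases before the start. Between them, beginning at 195, is 1 match to TGANTCA, the pattern searched for AP-1. Its letters are TGATTCA, and the pattern leaves the middle base open. No 2 matches overlap. Of the 26 mitosis genes with a promoter in the table, 80.8% held CCAAT and 50% held TTTGAA, against 35.8% and 8.62% of the 9247 genes tested that have one. Over the 444 lower genes with a promoter the shares were 36.7% and 11.5%, and over the 395 higher ones 35.7% and 9.11%. CATTCC was found in 25% of 16 YAP and serum response factor targets, in 9.01% of lower, 11.6% of higher and 9.15% of tested genes, and TGANTCA in 6.25%, 4.5%, 4.3% and 3.61% in the same order. Called genes therefore held these letters about as often as the genes tested did. A match is a description of letters and not of a bound site.

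Of 18 ER chaperone and unfolded protein response genes that passed among 21 listed, 5 rose (27.8%, against 4.13% of all genes) and 0 fell, with a median of 0.18. At an unadjusted p under 0.05, 7 were higher and 1 was lower. SYVN1, the ubiquitin ligase that clears misfolded proteins from the ER, stood at 9.74 and 9.70 in the combination and at 9.11 and 9.06 with PF04554878 alone (0.63 ± 0.09, adjusted p = 0.000288). The chaperones HSP90B1 (0.50 ± 0.12), CANX (0.45 ± 0.09) and DNAJB9 (0.32 ± 0.08) and EDEM1, which directs misfolded glycoproteins to breakdown (0.40 ± 0.10), were the others. SYVN1 was called in every fit without an array. HSP90B1 and CANX were lost without either second array, EDEM1 was called only without the first PF04554878 array, DNAJB9 was called in none, and between 1 and 4 of the list were called. Of 18 heat shock genes, 0 rose and 3 fell (16.7%, against 4.81%), or 1 and 4 at an unadjusted p under 0.05, with a median of -0.03 and 9 of 18 values above 0. Without single arrays, 2 were called lower and between 0 and 1 higher. The falls were HSPB8, a small heat shock protein (-1.04 ± 0.17, adjusted p = 0.00111), HSPA1B (-0.74 ± 0.10) and the cochaperone BAG3 (-0.35 ± 0.10), which was not called in any fit without an array. HSPA1A, whose sequence is nearly that of HSPA1B, differed by -0.10 (adjusted p = 0.77), so the HSPA1B value is uncertain.

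Among 19 lipid synthesis genes, 4 rose (21.1%, against 4.13%) and 1 fell (5.26%, against 4.81%). SCD, the desaturase of stearate, stood at 13.26 and 13.36 in the combination and at 12.62 and 12.50 with PF04554878 alone (0.75 ± 0.10, adjusted p = 0.000162), and the desaturase FADS1 rose by 0.53 ± 0.10. INSIG1, which retains sterol sensors in the ER, rose by 0.47 ± 0.12 and HMGCS1, of the mevalonate pathway, by 0.34 ± 0.10. FDPS, of the same pathway, fell by 0.42 ± 0.10. SCD and FADS1 held in all 4 fits without an array. HMGCS1 held in none of them, INSIG1 was lost without either second array, and FDPS without the first PF04554878 array or the second combination array. Of 28 ATF4 targets and amino acid genes, 2 rose (7.14%, against 4.13% of all genes) and 0 fell (3 and 6 at an unadjusted p under 0.05). The rises were DDIT4, an inhibitor of mTORC1, at 9.59 and 9.69 in the combination against 8.81 and 8.73 (0.87 ± 0.11, adjusted p = 0.000151), and SLC7A5, the large neutral amino acid transporter (0.65 ± 0.11).

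Oestrogen receptor targets had the highest median of all lists, 0.22 against -0.01 over all genes, with 16 of 20 values above 0. In the list 3 genes were called higher (15%, against 4.13% of all genes) and 1 lower (5%, against 4.81%). CELSR2, a cadherin, stood at 10.57 and 10.67 in the combination and at 9.95 and 9.89 with PF04554878 alone (0.70 ± 0.10, adjusted p = 0.000504). MYB, a transcription factor, rose by 0.61 ± 0.12, and its call was lost without either second array. CCND1 was the third. PDZK1, a scaffold protein, fell by 0.93 ± 0.22, although its 4 values were 9.17 and 9.13 in the combination and 10.08 on both arrays of PF04554878 alone. The error pools the spread of all 6 groups, and the call was lost in every fit without an array. TFF1, the usual marker of oestrogen action, averaged 13.73 in the combination and 13.65 with PF04554878 alone (0.08 ± 0.12, adjusted p = 0.776). The highest value on any array was 13.9, so TFF1 had little room to show a rise.

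Of 26 luminal epithelial genes, 4 rose (15.4%, against 4.13% of all genes) and 2 fell (7.69%, against 4.81%). Besides MUC1 the rises were the luminal transcription factors SPDEF (0.44 ± 0.10) and FOXA1 (0.34 ± 0.09) and the splicing factor ESRP1 (0.45 ± 0.10), and the falls were AGR2 (-0.53 ± 0.14) and ELF3 (-0.33 ± 0.09). MUC1 was called in every fit without an array. FOXA1, AGR2 and ELF3 were called in none of them, SPDEF was lost without either first array, and ESRP1 was called only without the first PF04554878 array.

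Genes of detoxification changed in both directions. The NRF2 list held 3 falls in 16 genes (18.8%, against 4.81% of all genes) and 1 rise (6.25%, against 4.13%). AKR1C2 and AKR1C3, related genes whose probes may share signal, both fell, AKR1C3 to values below background in the combination (at least 1.27-fold lower, adjusted p = 0.0131, held only without the second PF04554878 array). TXNRD1, thioredoxin reductase, fell by 0.56 ± 0.11 and was lost without either first array. FTL, the ferritin light chain, rose by 0.57 ± 0.11, held in all 4 fits. Of 10 genes of xenobiotic metabolism, UGT2B11 rose and UGT1A6 fell, 10% each against 4.13% and 4.81% of all genes. The UGT1A6 values were below background at 6.51 and 6.48 in the combination and stood at 7.86 and 7.64 with PF04554878 alone (at least 1.93-fold lower, adjusted p = 0.000195). UGT1A6 shares its last exons with the other UGT1A genes. Members of the UGT2B and UGT1A families thus differed in direction.

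Among 20 lysosomal and autophagy genes, 4 fell (20%, against 4.81%) and 1 rose (5%), with a median of -0.17. LAMP1, a main protein of the lysosomal membrane, stood at 10.58 and 10.49 in the combination and at 11.18 and 11.05 with PF04554878 alone (-0.58 ± 0.09, adjusted p = 0.000833). LAMP3 (-0.52 ± 0.10), the protease CTSL (-0.42 ± 0.09) and NPC2, a lysosomal cholesterol carrier (-0.45 ± 0.12), fell as well, and WIPI1, an autophagosome protein, rose by 0.36 ± 0.08. LAMP1 and LAMP3 held in all 4 fits without an array, CTSL was lost without either first array, and WIPI1 and NPC2 held in none.

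Among death and stress genes, PHLDA3, a p53 target that inhibits AKT, stood at 8.54 and 8.59 in the combination and at 9.27 and 9.41 with PF04554878 alone (-0.78 ± 0.09, adjusted p = 3.58e-05), while RRM2B, a p53-induced ribonucleotide reductase subunit (0.60 ± 0.13), and TNFRSF10B, a TRAIL receptor (0.48 ± 0.12), rose. RRM2B was lost without either second array and TNFRSF10B without either first array. In all, 2 of 19 p53 targets rose (10.5%, against 4.13% of all genes) and 1 fell (5.26%, against 4.81%). Counts at an unadjusted p under 0.05 were 6 higher and 1 lower, and 13 of the 19 values lay above 0. CDKN1A, also on the list, differed by 0.61 ± 0.19 (adjusted p = 0.0523) and was not called. Of 16 BCL2 family genes, BNIP3L (0.61 ± 0.14, lost without either second array) and BNIP3 rose and BID, which links death receptors to mitochondria, fell (-0.52 ± 0.09). The shares of the BCL2 family were 12.5% higher and 6.25% lower, against 4.13% and 4.81% of all genes. Among 23 glycolysis and hypoxia genes 3 rose (13%, against 4.13%), ALDOC (0.36 ± 0.10), PGAM1 (0.52 ± 0.13) and BNIP3 (0.34 ± 0.10). ADM was the 1 that fell (4.35%, against 4.81%). ALDOC and BNIP3 held in no fit without an array, and PGAM1 only without the second PF04554878 array. By calls, the lists of ribosome biogenesis and of the respiratory chain were near the share of all genes. Ribosome biogenesis had 1 of 27 higher and 1 lower, 3.7% each, with a median of -0.09 and 8 values above 0. The respiratory chain had 0 of 24 higher and 1 lower (4.17%). At an unadjusted p under 0.05, the counts were 1 and 5 for ribosome biogenesis and 1 and 6 for the respiratory chain. Among 11 metallothionein and zinc transport genes, 1 was called higher (9.09%, against 4.13% of all genes) and 0 lower (against 4.81%). Only 2 of 11 values lay above 0, with a median of -0.10, and 1 was higher and 3 lower at an unadjusted p under 0.05. The call was the zinc importer SLC39A4 (0.39 ± 0.11), and it held only without the second PF04554878 array. Antigen presentation and interferon-stimulated genes had 0 calls by limma among 16 and 21 genes, and 4 and 5 at an unadjusted p under 0.05.

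Markers of other cell types were mostly below background. Of those listed, 3 of 13 fibroblast, 1 of 10 endothelial, 1 of 14 leukocyte, 3 of 8 basal epithelial and 3 of 9 adipocyte markers passed the filter. The only call among them was COL5A1, a fibrillar collagen chain, which stood at 7.95 on both combination arrays and at 8.86 on both arrays of PF04554878 alone (-0.91 ± 0.09, adjusted p = 1.19e-05). COL1A2, COL3A1, DCN, PDGFRA and PDGFRB, which define fibroblasts, did not pass the filter. The summed linear intensity of the 3 fibroblast genes, COL5A1 included, was 491.4 to 500.8 in the combination and 695.9 to 702.4 with PF04554878 alone. The 3 did not move together. At an unadjusted p under 0.05, 1 was higher and 1 was lower. The part of these markers in the other results was not tested.

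Whether lapatinib changed the same genes without PF04554878 was read from pairs of groups that share no array with this one. Lapatinib against untreated had 6469 genes called (56.4%), and Y15 plus lapatinib against Y15 had 6277 (54.7%). Both cross the sets of arrays, so that what lapatinib did and what separated the sets cannot be told apart there. Across 11478 genes, normalised together, the changes correlated at r = -0.02 with lapatinib against untreated and at -0.06 with Y15 plus lapatinib against Y15. Of the 1026 genes called here, 316 were called the same way by lapatinib against untreated and 373 the opposite way. Those 316 are 30.8% of the genes called here and 4.88% of those called there.

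Single genes show both cases. Of the 14 leading rises, lapatinib against untreated had 4 higher, TM7SF2, PTGER4, MUC1 and BHLHE40, and 9 lower, and of the 14 leading falls it had 7 lower and 5 higher. AKR1C2 and ACKR3 were below background on both lapatinib arrays and averaged 9.10 and 8.75 in untreated ones. ADM and FHL2, which fell here, were 3.13 ± 0.14 and 3.07 ± 0.16 log2 units higher with lapatinib than in untreated arrays. FOS ran the opposite way, at 0.83 ± 0.10 here and -1.39 ± 0.10 with lapatinib against untreated, where its lapatinib mean of 6.84 was close to background. ERBB2 did too, at -0.85 ± 0.09 with lapatinib against untreated.

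The difference between the 2 changes was tested directly. With lapatinib on PF04554878 minus lapatinib on untreated, 5208 genes were called by limma (45.4%), and with lapatinib on PF04554878 minus lapatinib on Y15, 5176 (45.1%). The largest of these differences came from genes that hardly moved here. TFF1 stood near the top of the scale here, at 13.73 in the combination and 13.65 with PF04554878 alone. It averaged 6.48 with lapatinib alone, below background, and 12.63 in untreated arrays. The cancer-testis antigen GAGE4 was below background in both groups compared here and averaged 13.77 with lapatinib and 6.55 in untreated arrays. CLDN1, a tight junction protein, moved in both. It was below background in the combination (mean 6.51) and averaged 7.43 with PF04554878 alone, and it averaged 12.50 with lapatinib and 6.56 in untreated arrays, a difference of changes of -6.87 ± 0.13 that is no bound where groups lie below background.

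**Figure D3:**
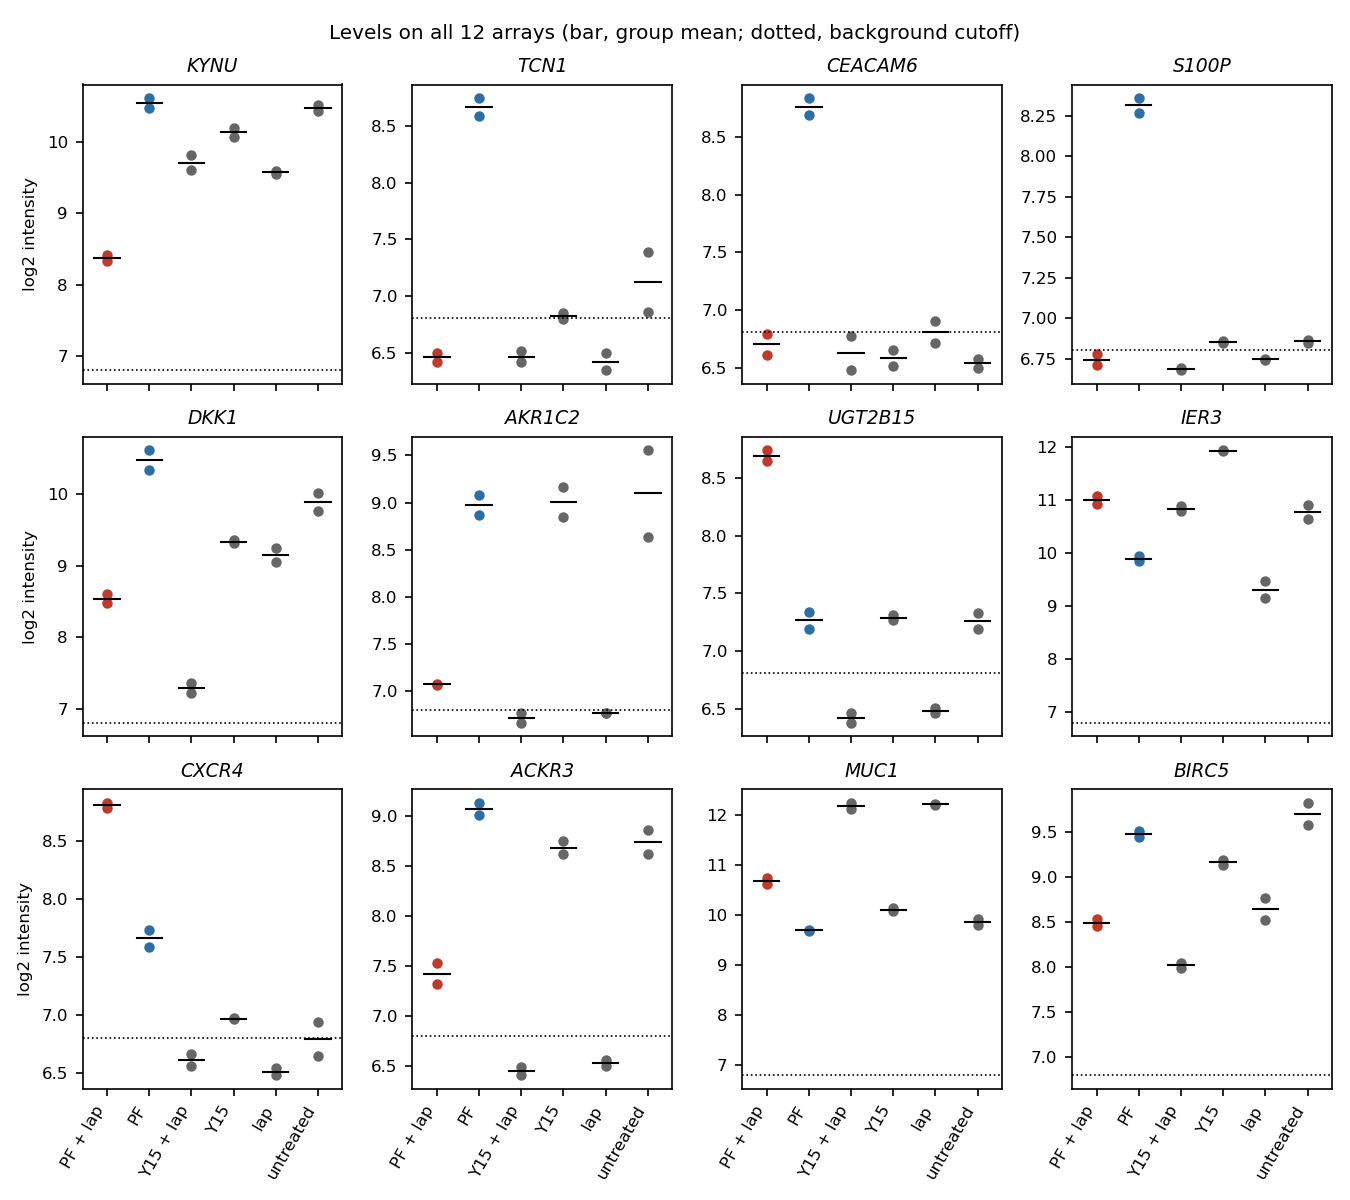
Log2 intensity (y axis) of 12 named genes on all 12 arrays, one point per array, by labelled group (x axis; PF, PF04554878; lap, lapatinib); bars are group means and the dotted line is the background cutoff. CEACAM6 and S100P stand well above the cutoff with PF04554878 alone and near or below it in the other 5 groups, while UGT2B15 and CXCR4 are highest in the combination.

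The small pairs within the other sets offer a second setting, although their drug is Y15 and not lapatinib. Y15 against untreated had 624 genes called (5.44%), and Y15 plus lapatinib against lapatinib had 1309 (11.4%). Across the 11478 genes the changes described here correlated with those of Y15 against untreated at r = 0.32 and with those of Y15 added to lapatinib at r = 0.15. Of the genes called here, 180 were called the same way by Y15 against untreated and 14 the opposite way. The 180 are 17.5% of the genes called here and 28.8% of those called there. With Y15 added to lapatinib, 171 were called the same way and 50 the opposite way, 16.7% of the genes called here and 13.1% of those called there.

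IER3 and BIRC5 are examples. IER3 rose by 1.10 ± 0.12 here, by 1.15 ± 0.12 with Y15 against untreated and by 1.52 ± 0.12 with Y15 added to lapatinib. BIRC5 fell by 0.98 ± 0.10 here, by 0.54 ± 0.10 with Y15 against untreated and by 0.63 ± 0.10 with Y15 added to lapatinib. DKK1 fell in all 3 pairs, with -1.93 ± 0.12 here, -0.56 ± 0.12 with Y15 against untreated and -1.87 ± 0.12 with Y15 added to lapatinib. Most leading genes were not shared in this way. Of the 14 leading falls, 2 were called lower by Y15 against untreated, TFPI and DKK1, and 12 were not called. KYNU differed by -0.34 ± 0.10 there (adjusted p = 0.054), and UGT2B15 by 0.03 ± 0.09 (adjusted p = 0.902). A test of the difference between lapatinib added to PF04554878 and Y15 against untreated called 262 genes (2.28%), and the same test against Y15 added to lapatinib called 806 (7.02%). Without single arrays these counts ranged from 115 to 564, highest without the second untreated array, and from 286 to 664, and the second was 408 with the replicate block. Both tests were added after the data had been seen.

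**Figure D4:**
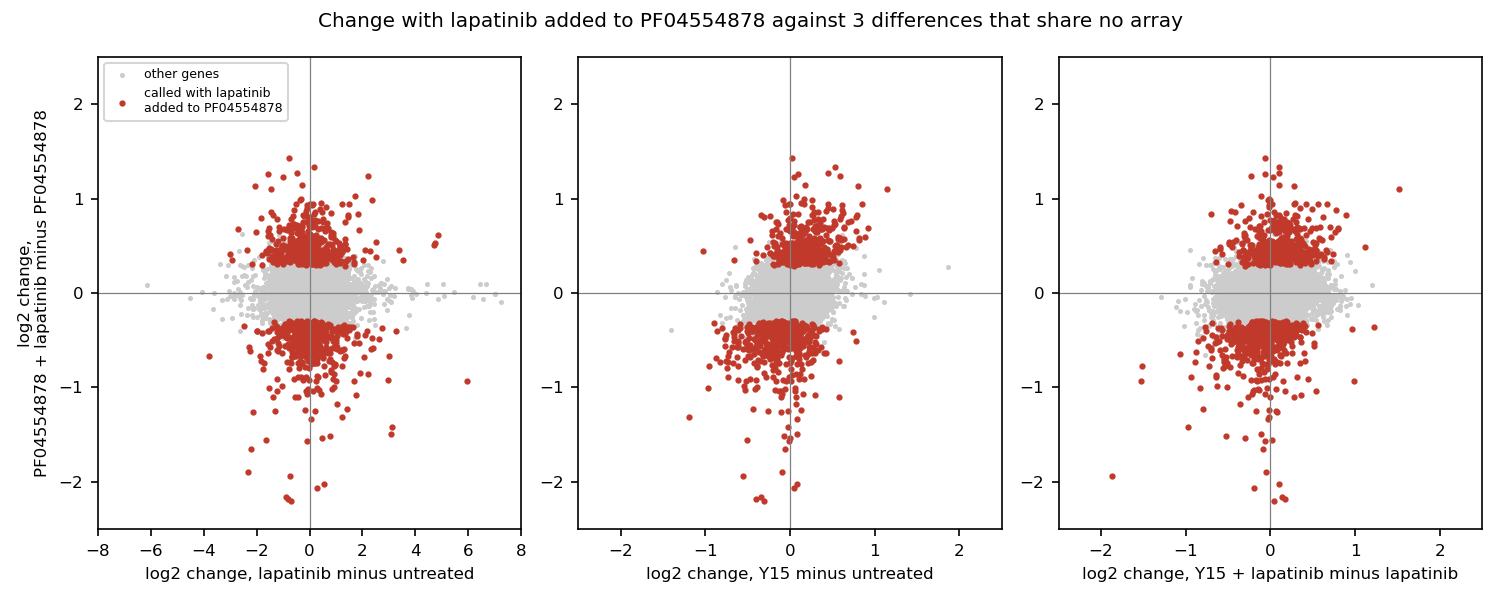
Log2 change with lapatinib added to PF04554878 (y axis) against that of 3 differences that share no array with it (x axes), one point per gene; red points were called with lapatinib added to PF04554878. The left x axis spans a wider range than the other panels, and the points of the middle panel lean towards a rising diagonal (r = 0.32 over all genes).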

How the data were processed

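RNA of 12 samples was measured on Illumina expression arrays. The authors deposited log2 intensities per probe. The submitters' processing notes name GenomeStudio with no version, and how background was handled and arrays were normalized is not given in the sources used. The values ran from 6.2 to 13.9, and once sorted the 12 columns matched within 0.0146. A second table of raw signals was not used, because its 24 columns carry names that match no label.

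The cutoff for background was the mode of all values (6.553) plus 3 SD (each 0.0838) of the values below the mode. Of 47318 probes, 30111 carry 1 gene symbol, 8 several and 17199 none. Symbols came from the platform annotation. Of the probes with 1 symbol, those above the cutoff on at least 2 arrays were kept, 15433 in all, and the brightest stood for its gene. About 34% of probes lay above the cutoff. A gene with every probe under the cutoff on both arrays of 1 group has only a lower bound for its fold, taken from the cutoff in that group to the mean of the brighter one.

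Group means were fitted to all 12 arrays by lmFit and eBayes of limma 3.58.1 under R 4.3.3 (residual degrees of freedom 6, prior 9.15), with Benjamini-Hochberg adjustment over 11478 genes. Pooling assumes that all groups vary alike, and a lone array left in a group is assumed to vary like the other groups. The SD within groups, pooled over genes, was 0.163 in untreated arrays and 0.097 to 0.115 in the other groups. With the untreated arrays left out of the fit, 1445 genes were called in place of 1026. The scripts were tested on simulated data. The number of arrays limits the precision. No slide or scan date was used here.

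Genes were named by rule: the 14 largest rises and 14 largest falls among called genes with no overlap between the groups and a level above background on both arrays of the higher group, up to 4 called genes of lowest adjusted p from each of 29 gene lists, PTK2, PTK2B, EGFR, ERBB2, ERBB3 and ESR1, and the 4 largest of each sign in the 2 tests of a difference from other lapatinib pairs. Further list members and the label markers PGR, GRB7, KRT8 and KRT19 were named after their values had been seen, as were the 4 promoter motifs. The genes, lists and comparisons were chosen with earlier results of these data known. Promoters were taken from RefSeq (GRCh38.p14). Alternatives were 3 other filters, 2 other ways to combine probes, subtraction of the background level, 2 other sets of arrays in the fit, the replicate number as a block, another estimate of the spread, and each array left out in turn.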

Additional observations from a re-analysis of the deposited data

Results flagged for a closer look

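The change with lapatinib differed between settings in many genes by a direct test of the difference. Both of the other lapatinib pairs cross sets of arrays, while the pair described here lies within 1 set. Lapatinib on PF04554878 against lapatinib on untreated differed in 5208 genes, and against lapatinib on Y15 in 5176. The part of the sets in these differences cannot be told apart from that of the treatment.

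Values are the change with lapatinib on PF04554878 minus the change in the other pair, in log2 units. Against lapatinib on untreated, the highest were TFF1 (6.23), BASP1 (4.47), HENMT1 (4.06) and GFRA1 (3.67), and the lowest GAGE4 (-7.31), GAGE12G (-7.03), GAGE12J (-7.00) and CLDN1 (-6.87). Against lapatinib on Y15, the highest were TFF1 (6.96), BASP1 (4.28), HENMT1 (4.11) and GFRA1 (3.79), and the lowest GAGE4 (-7.02), GAGE12G (-6.84), CLDN1 (-6.76) and GAGE12C (-6.75). TFF1, BASP1 and HENMT1 were below background with lapatinib alone, and the GAGE genes were below background in both PF04554878 groups, so these fitted values are no bounds. The GAGE genes are near-identical and their probes may read each other.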

How the results depend on the processing

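All 10 alternatives that kept all 4 arrays gave between 738 and 1445 called genes, within 1.5 times the 1026 reported. The genes themselves changed more than the counts. With the background level subtracted, 811 genes were called, of which 624 were among the 1026 in the same direction. Leaving out 1 array gave 420 to 586. Of 92 named genes called, 49 kept their call in all 4 of those fits. Subtracting the background level cost 26 of the 92 calls, among them ZYX, ITGA3, ITGAV, AJUBA, CDK1 and HSP90B1. A fit with the replicate number as a block called 827 genes and cost 8 calls, among them CCN1 and CCND1. The numbers did not pair the arrays (same-numbered arrays of the 2 groups deviated with r = -0.079). EGFR, not called, changed sign with the mean of all its kept probes (-0.03665). Among the 28 leading genes only TXNIP lost its call, in 6 of 14 settings. The causes were not tested.

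The difference from Y15 against untreated (262 genes) came to 121 with probes above background on all 12 arrays and to between 115 and 564 without single arrays, highest without the second untreated array. That from Y15 added to lapatinib (806) came to 1299 without the untreated arrays in the fit, to 408 with the replicate block, and to between 286 and 664 without single arrays. Counts of the other differences stayed within 1.5 times in every setting run.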
